A study of Homo sapiens with 9 samples.

Results

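The genes described here are 39 interferon-stimulated genes, the rows of a deposited read count table whose symbols are on a list of antiviral sensors, signalling factors and effectors. All 39 were among the 21229 genes of the table, and all 39 had enough reads to be tested, as did 16232 genes in all. The cells were described as blood-forming cells grown from the human embryonic stem cell line H1. Each of 9 libraries of strand-specific RNA sequencing came from cells positive for 1 surface antigen. The libraries also held reads of mesenchymal and endoderm markers, most in CD90+ control cells, as given below. There were 3 libraries in each of 3 groups: CD38+ cells of the control genotype, CD90+ cells of the control genotype, and CD90+ cells of the GATA2 overexpression genotype. CD38 is a surface enzyme found on committed blood cells, CD90 (the product of THY1) marks blood stem cells and also stromal cells, and GATA2 is a transcription factor needed for blood stem cells. The labels do not give the promoter or vector of the GATA2 construct, whether the line was 1 clone, or whether replicates were cultured separately, so p-values measure only the spread between these libraries, which may be technical. An effect of GATA2 and one of the culture it was grown in cannot be told apart.

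Libraries held 37500192 to 47261093 assigned reads. Levels are in CPM (counts per 1000000), scaled by library size and by edgeR's TMM factor and given for replicates 1, 2 and 3 in that order or as mean ± SD with n = 3. Adjusted p-values come from the quasi-likelihood test of edgeR and were adjusted by Benjamini-Hochberg over all 16232 genes, and a gene is called at an adjusted p under 0.05. GATA2 itself was at 569 CPM in CD38+ cells, 87.3 in CD90+ control cells and 376 with overexpression, reads of the construct and of the native gene being counted together where both match. THY1 had 0 counts in the 3 CD38+ control libraries, which allows up to 0.0261 CPM over the group, against 4.43 and 3.06 CPM in the CD90+ groups, and CD38 was at 122 CPM against 4.37 and 2.23 CPM. Since these are bulk samples, fewer cells of a type and less RNA per cell cannot be told apart.

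Interferons are cytokines that cells release when they sense viral or misplaced nucleic acid. Type I interferon receptors activate the kinases JAK1 and TYK2, which phosphorylate STAT2. A complex that holds STAT2 and IRF9 binds the interferon-stimulated response element (ISRE), whereas the gamma-activated site (GAS) serves mainly genes that respond to interferon gamma. Many of the target genes also have a tonic level without infection, and IFITM genes in particular are known to be expressed in stem cells without added interferon.

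Promoter stretches of 6 members are shown because they carry these elements and stand for 3 different patterns of expression. IFIT1 and IFIT3 were highest in CD90+ control cells, IFI6 and IFITM3 were highest in GATA2 overexpression cells, and IRF1 and IRF9 were highest in CD38+ control cells (for IRF1 this was CD90+ control cells when libraries were scaled by size only or by upper quartile, and for IRF9 when they were scaled by size only). Sequences are from RefSeq (GRCh38.p14), read 5′ to 3′ on the strand of the gene. For IFIT1, IFIT3, IFI6 and IRF1 each runs from 250 bases before the RefSeq start up to the base before the first exon of GENCODE release 29, and for IFITM3 and IRF9, whose matches lie inside an exon of that annotation, 30 bases around the matches are given. Capitals mark matches, on either strand, to the ISRE core (2 copies of GAAA with any 2 bases between them) in the first 4 and to the GAS motif TTCNNNGAA in the last 2.
IFIT1 (chr10:89392373-89392545, plus strand): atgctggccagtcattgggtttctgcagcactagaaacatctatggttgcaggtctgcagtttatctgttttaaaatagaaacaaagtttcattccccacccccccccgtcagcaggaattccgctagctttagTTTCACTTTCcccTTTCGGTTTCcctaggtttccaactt
IFIT3 (chr10:89327747-89327893, plus strand): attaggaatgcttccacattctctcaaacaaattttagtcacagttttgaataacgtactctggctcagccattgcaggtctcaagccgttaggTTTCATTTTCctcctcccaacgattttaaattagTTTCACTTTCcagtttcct
IFI6 (chr1:27672219-27672442, minus strand): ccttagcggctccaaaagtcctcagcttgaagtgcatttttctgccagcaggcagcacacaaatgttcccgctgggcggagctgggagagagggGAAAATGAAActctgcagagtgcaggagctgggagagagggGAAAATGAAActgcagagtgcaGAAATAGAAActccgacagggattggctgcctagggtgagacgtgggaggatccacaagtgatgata
IFITM3 (chr11:320884-320913, minus strand): gGAAAAGGAAActgttgaGAAACCGAAAct
IRF1 (chr5:132490799-132491023, minus strand): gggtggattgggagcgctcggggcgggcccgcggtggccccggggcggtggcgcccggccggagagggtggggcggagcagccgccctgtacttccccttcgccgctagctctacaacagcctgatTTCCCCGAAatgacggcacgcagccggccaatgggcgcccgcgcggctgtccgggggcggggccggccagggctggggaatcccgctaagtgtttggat
IRF9 (chr14:24161192-24161221, plus strand): accacgtgatTTCTGGGAAaaggccctccc

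The pairs of ISRE cores lay at -116 to -107 and -103 to -94 from the start in IFIT1 and at -156 to -147 and -122 to -113 in IFIT3, all on the strand opposite to the gene. In IFITM3 they lay at -52 to -43 and -35 to -26 on the strand of the gene, and IFI6 had 3, at -156 to -147, -115 to -106 and -93 to -84. The GAS match lay at -124 to -116 in IRF1 and at -63 to -55 in IRF9. RefSeq promoters of 300 bases (250 before the start and 50 after it) were matched for 30 of the 39 members. An ISRE core was found in 19 of the 30 (63.3%), against 2.99% of 12258 promoters of tested genes and 3.65% of all 27305 promoters. A GAS motif was found in 7 of 30 (23.3%), against 6.62% and 7.88%, and in BST2, IFI27 and IFITM1 it overlapped an ISRE core. The GATA motifs TGATAA or AGATAA, on either strand, were in 5 of 30 (16.7%), against 9.86% of promoters of tested genes and 16.6% of all. These are matches of letters, and no binding was measured.

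ISRE cores stood in the promoters of members from all 3 expression patterns. Sorted by the group with the highest mean, 11 of 14 members highest in CD90+ control cells had an ISRE core, as did 5 of 5 highest in GATA2 overexpression cells (BST2, EIF2AK2, IFI6, IFITM1 and IFITM3) and 3 of 11 highest in CD38+ control cells (ISG15, OAS3 and SAMD9). The 7 promoters with a GAS match were those of IRF1, IRF9 and IFI35, which were highest in CD38+ cells, of OAS1 and IFI27, which were highest in CD90+ control cells, and of BST2 and IFITM1, which were highest with GATA2 overexpression. This sorting uses TMM-scaled means, and the direction between the control groups changed with the scaling for several members, as given below.

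**Figure D1:**
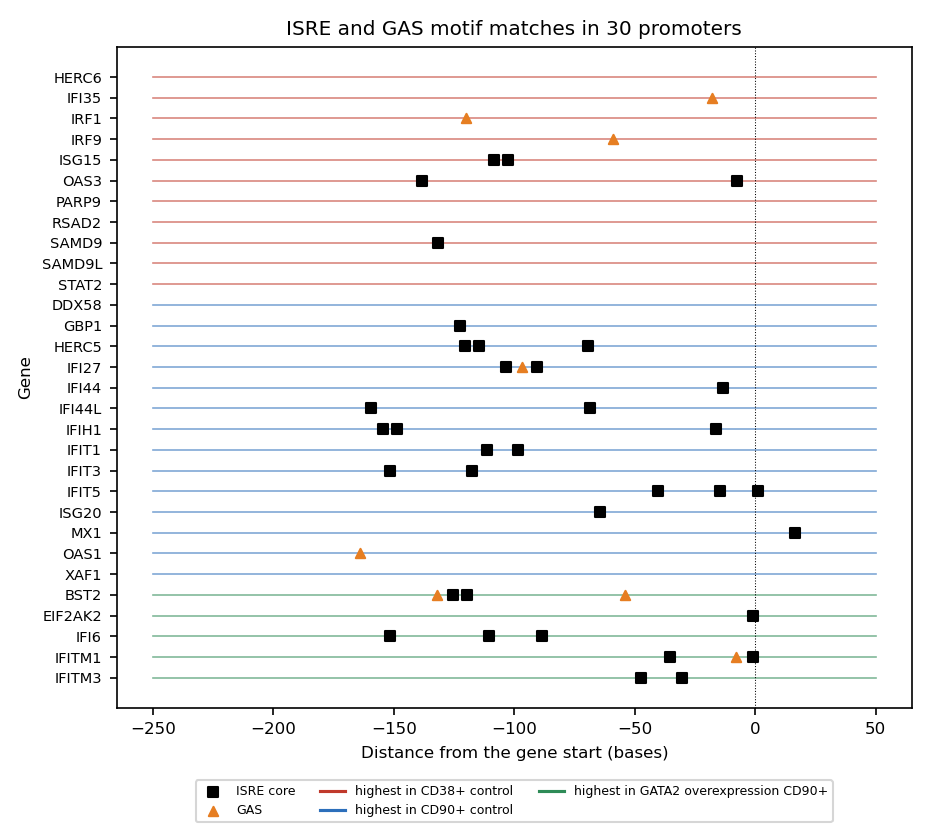
Positions of ISRE core matches (squares) and GAS matches (triangles) in the 30 member promoters, with the distance from the gene start in bases on the x axis and 1 gene per line, coloured by the group with the highest mean TMM-scaled level. Squares stand on the lines of all 3 colours, including all 5 genes highest in GATA2 overexpression cells, and all but a few lie before the start.

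The control groups differed in almost every member, in both directions. Between CD90+ and CD38+ control cells 37 of 39 members were called (94.9%), beside 80.4% of all genes tested: 20 were higher (51.3% of members, 41.1% of all genes) and 17 lower (43.6%, 39.3%) in CD90+ cells, but 27 and 7 when scaled by library size only and 22 and 8 by upper quartile. RSAD2 and XAF1 were not called. The libraries of the 2 groups did not overlap in 37 members, beside 82.8% of all genes (20 higher and 17 lower, beside 42.5% and 40.4%). Differences of at least 2-fold were called in 15 members, beside 36.2% of all genes, with 11 higher in CD90+ cells (28.2%, against 22.6%) and 4 lower (10.3%, against 13.6%). The members' median log2 fold change was 0.16, beside 0.03 for all genes tested. With library size only, the all-gene median shifted by 0.41 in this comparison, by -0.25 between the CD90+ groups and by 0.16 between GATA2 overexpression and CD38+ cells (upper quartile: 0.26, -0.11 and 0.15).

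Between the CD90+ groups most members were lower with GATA2 overexpression. Of 39 members 38 were called (97.4%), beside 77.6% of all genes tested: 31 were lower (79.5% of members, 39.6% of all genes) and 7 higher (17.9%, 38.0%). HERC6 was not called. The libraries did not overlap in 36 members, beside 80.4% of all genes (7 higher and 29 lower, beside 39.3% and 41.1%). Differences of at least 2-fold were called in 21, beside 29.4% of all genes, with 17 lower (43.6%, against 21.4%) and 4 higher (10.3%, against 7.98%). The median log2 fold change was -0.84 for the members and -0.04 for all genes. The 7 that were higher with GATA2 overexpression were IFITM1, IFITM2, IFITM3, IFI6, ISG15, EIF2AK2 and, except with library size only, BST2.

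Compared with CD38+ control cells, GATA2 overexpression CD90+ cells had 15 members higher and 22 lower (38.5% and 56.4%, against 43.3% and 39.9% of all genes, with 83.2% of all genes called in either direction). DDX58 and HERC5 were not called. The libraries did not overlap in 37 members, beside 83.0% of all genes (14 higher and 23 lower, beside 42.9% and 40.0%). The members' median log2 fold change was -0.51, beside 0.07 for all genes. At least 2-fold, 5 were higher and 15 lower (12.8% and 38.5%, against 23.0% and 21.2% of all genes, and 44.2% in either direction). This comparison shares its libraries with the 2 above, so its values stand beside theirs and add no independent measurement.

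**Figure D2:**
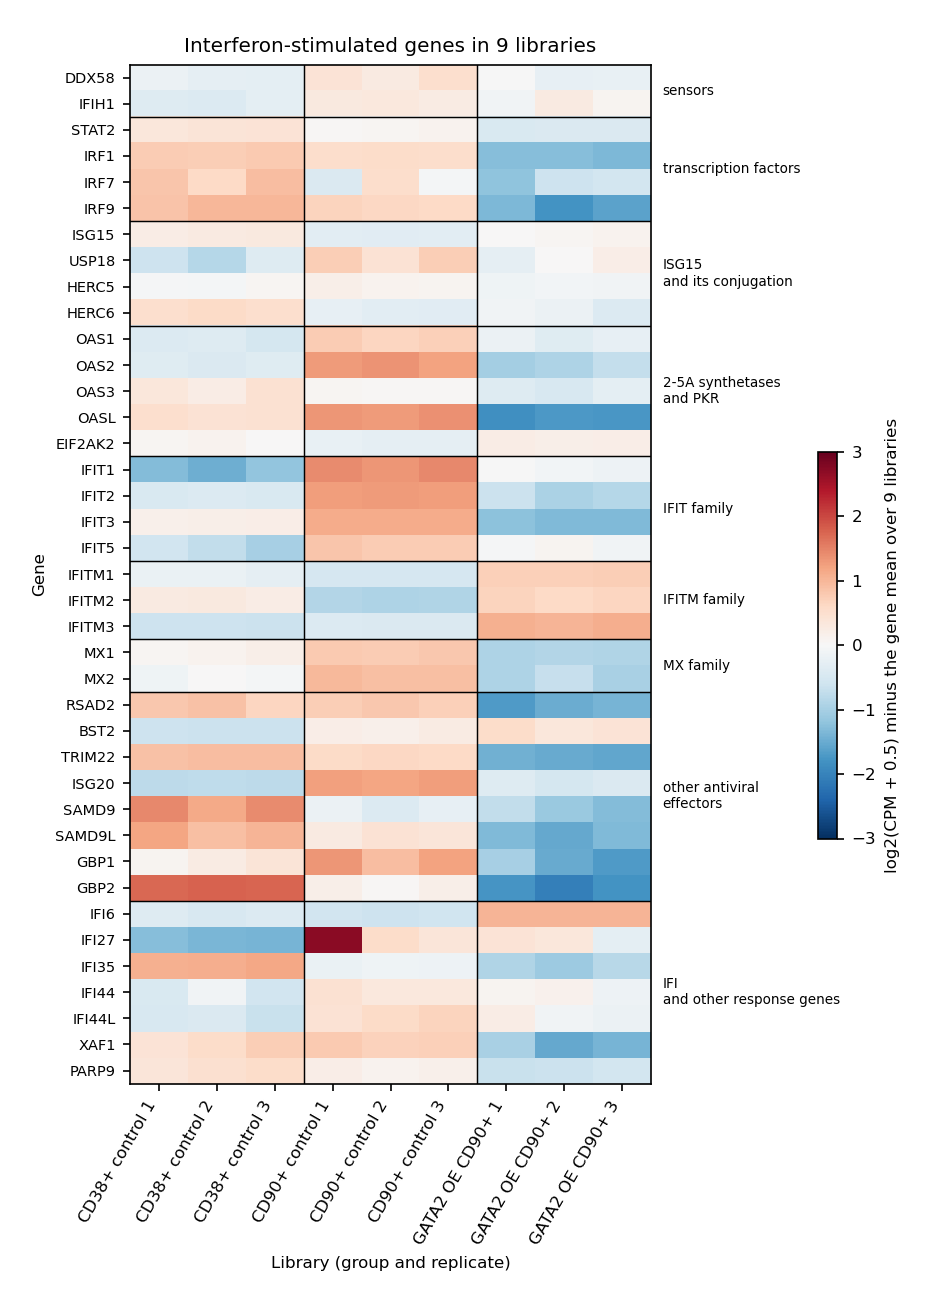
Level of each of the 39 members (rows, grouped by role) in the 9 libraries (columns; OE is overexpression), as log2(CPM + 0.5) minus the gene's mean over all libraries, with red for above and blue for below that mean. The GATA2 overexpression columns are blue in most rows and red in the IFITM and IFI6 rows, and the CD90+ control columns are red in the IFIT, MX and OAS2 rows. IFI27 stands out in CD90+ control replicate 1.

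By mean level, 19 members were highest in CD90+ control cells (29.3% of all tested genes were), 14 in CD38+ control cells (36.3%) and 6 in GATA2 overexpression cells (34.4%). The lowest mean was in GATA2 overexpression cells for 21 members (33.6% of all genes), in CD38+ control cells for 12 (40.1%) and in CD90+ control cells for 6 (26.3%). The share of all counts taken by the 39 genes was 0.275% to 0.276% in CD38+ control, 0.336% to 0.341% in CD90+ control and 0.408% to 0.421% in GATA2 overexpression libraries. Without the 3 IFITM genes the shares were 0.154% to 0.158%, 0.229% to 0.233% and 0.158% to 0.163%, so the largest share was in GATA2 overexpression cells with the IFITM genes and in CD90+ control cells without them. These shares are of unscaled counts. With TMM scaling the 39 genes summed to 3135 to 3153, 2883 to 2940 and 4158 to 4308 CPM in the same order of groups. The order of the control groups was thus reversed by the scaling. Shares without the IFITM genes are given for unscaled counts only.

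**Figure D3:**
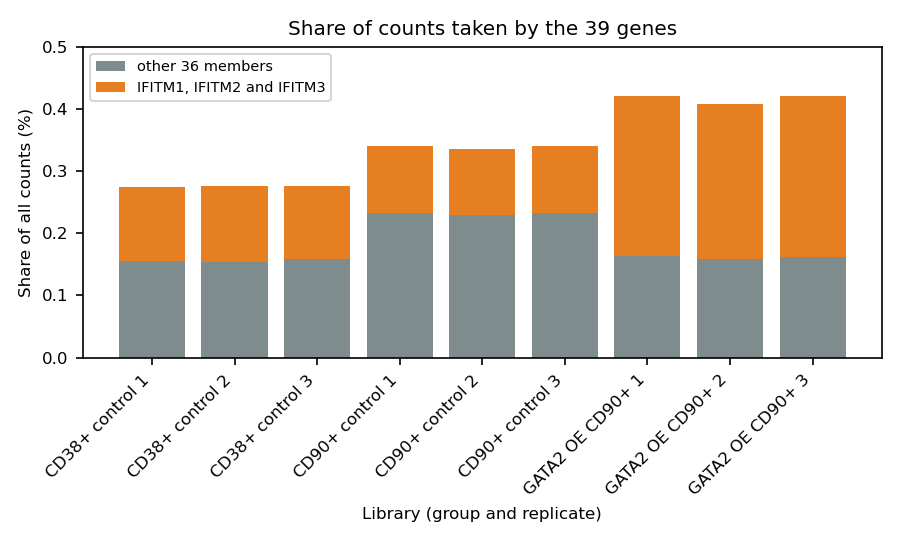
Percentage of all counts of each library (bars, 1 per library; OE is overexpression) that fell on IFITM1, IFITM2 and IFITM3 (orange) and on the other 36 members (grey). The total is highest in the GATA2 overexpression libraries, at 0.408% to 0.421%, while the grey part is highest in the CD90+ control libraries, at 0.229% to 0.233%.

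Both cytosolic RNA sensors were highest in CD90+ control cells, as were 29.3% of all genes tested. DDX58 (ENSG00000107201.9, chromosome 9, 32455705 to 32526324, minus strand, GRCh38) encodes RIG-I, which detects RNA with a triphosphate end, and was at 12.2, 11.6 and 11.4 CPM in the CD38+ libraries, 18.9, 16.9 and 20.03 CPM in those of CD90+ control cells and 13.9, 11.7 and 11.96 CPM in those with GATA2 overexpression. Its CD90+ control libraries were above all others. It was 1.59-fold higher in CD90+ than CD38+ control cells (log2 fold change 0.66 ± 0.09 SE, adjusted p = 3.03e-06) and 1.48-fold lower with GATA2 overexpression (log2 fold change -0.57 ± 0.09 SE, adjusted p = 1.93e-05). IFIH1 (ENSG00000115267.6, chromosome 2, 162267079 to 162318703, minus strand) encodes MDA5, a sensor of long double-stranded RNA. It was at 12.3, 11.98 and 13.1 CPM in the CD38+ libraries, 19.7, 20.3 and 19.05 CPM in those of CD90+ control cells and 14.96, 19.6 and 16.96 CPM in those with GATA2 overexpression. The CD38+ libraries were below the rest, but the GATA2 overexpression libraries overlapped those of CD90+ control cells. IFIH1 was 1.58-fold higher in CD90+ than CD38+ control cells (adjusted p = 3.03e-06), and its difference between the CD90+ groups (log2 fold change -0.20 ± 0.09 SE, adjusted p = 0.0483) lost the call in 8 of 9 fits that left out 1 library, with adjusted p up to 0.277 (without GATA2 overexpression replicate 1).

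The transcription factors of the response were lower with GATA2 overexpression in all 4 cases, 2 of them at least 2-fold, beside 39.6% and 21.4% of all genes. For STAT2, IRF1 and IRF9 the direction between the control groups depended on the scaling. IRF9 (ENSG00000213928.8, chromosome 14, 24161053 to 24166565, plus strand), the DNA-binding partner of STAT2, was at 12.5, 13.7 and 13.9 CPM in the CD38+ libraries, 10.98, 10.5 and 10.4 CPM in those of CD90+ control cells and 2.32, 1.59 and 1.88 CPM in those with GATA2 overexpression. The GATA2 overexpression libraries were far below both control groups, which lay close together without overlapping. IRF9 was 5.49-fold lower with GATA2 overexpression (log2 fold change -2.46 ± 0.13 SE, adjusted p = 2.14e-11). Between the control groups it was 1.26-fold lower in CD90+ cells (log2 fold change -0.33 ± 0.11 SE, adjusted p = 0.0135), but not called with upper-quartile factors and of opposite sign, not called, with library size only. Of its annotated exon bases, 48.4% are shared with a gene model on the same strand, AL136295.5, that was not analysed here.

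IRF1 (ENSG00000125347.13, chromosome 5, 132481609 to 132490798, minus strand), which activates genes after interferon gamma, was at 178, 174 and 179.7 CPM in the CD38+ libraries, 151, 152 and 151 CPM in those of CD90+ control cells and 42.7, 42.9 and 40.7 CPM in those with GATA2 overexpression. The GATA2 overexpression libraries were again the lowest, with no overlap. It was 3.597-fold lower with GATA2 overexpression (log2 fold change -1.85 ± 0.03 SE, adjusted p = 3.61e-18), and 1.17-fold lower in CD90+ than CD38+ control cells (log2 fold change -0.23 ± 0.03 SE, adjusted p = 6.30e-07), a direction that turned to a log2 fold change of 0.18 (adjusted p = 7.21e-06) with library size only and to 0.04 (not called) with upper-quartile factors. IRF7 (ENSG00000185507.20, chromosome 11, 612553 to 615999, minus strand), the factor that drives interferon alpha genes, was at 41.9, 35.5 and 44.7 CPM in the CD38+ libraries, 17.3, 34.3 and 22.3 CPM in those of CD90+ control cells and 9.89, 14.97 and 15.96 CPM in those with GATA2 overexpression. Its CD90+ control libraries were spread widely, below all CD38+ and above all GATA2 overexpression libraries. It was 1.82-fold lower with GATA2 overexpression (adjusted p = 8.11e-04) and 1.65-fold lower in CD90+ than CD38+ control cells (adjusted p = 0.00186; 0.131 with library size only). STAT2 had means of 91.8, 73.9 and 51.7 CPM in the same order of groups. It was 1.43-fold lower with GATA2 overexpression (adjusted p = 8.62e-10), and lower in CD90+ than CD38+ control cells (1.24-fold, adjusted p = 3.76e-07) by TMM. This difference was not called with upper-quartile factors (adjusted p = 0.211) and had the opposite sign with library size only (log2 fold change 0.10, adjusted p = 0.0205).

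ISG15 and the genes of its conjugation did not move together. ISG15 (ENSG00000187608.9, chromosome 1, 1001138 to 1014540, plus strand), a small ubiquitin-like protein that is attached to other proteins, was at 305, 312 and 318 CPM in the CD38+ libraries, 210.1, 206 and 209 CPM in those of CD90+ control cells and 265, 271 and 282 CPM in those with GATA2 overexpression. No groups overlapped, and the CD90+ control libraries were the lowest. It was 1.499-fold lower in CD90+ than CD38+ control cells (log2 fold change -0.58 ± 0.03 SE, adjusted p = 2.44e-12) and 1.31-fold higher with GATA2 overexpression (log2 fold change 0.39 ± 0.03 SE, adjusted p = 7.38e-10). USP18 (ENSG00000184979.9, chromosome 22, 18149899 to 18177397, plus strand), which removes ISG15 from proteins and dampens receptor signalling, had the opposite order, with 3.403, 2.83 and 4.11 CPM in the CD38+ libraries, 9.58, 7.601 and 9.56 CPM in those of CD90+ control cells and 4.44, 5.54 and 6.41 CPM in those with GATA2 overexpression. The CD90+ control libraries were above all others, and the difference was 2.58-fold from CD38+ control (log2 fold change 1.37 ± 0.17 SE, adjusted p = 1.06e-06) and 1.63-fold from GATA2 overexpression cells (log2 fold change -0.71 ± 0.16 SE, adjusted p = 8.52e-04).

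HERC5, the main ligase for ISG15 in human cells, and HERC6, its relative, are neighbours on chromosome 4 (88378739 to 88506163). HERC6 was at 17.7, 18.7 and 17.6 CPM in the CD38+ libraries, 10.3, 9.83 and 9.604 CPM in those of CD90+ control cells and 11.4, 10.9 and 9.11 CPM in those with GATA2 overexpression. It was 1.82-fold lower in CD90+ than CD38+ control cells (adjusted p = 1.57e-07), and the CD90+ groups overlapped (log2 fold change 0.08, adjusted p = 0.465, negative and not called with library size only, upper-quartile factors or the stricter filter of 1 CPM in 3 libraries). HERC5 differed little, with means of 34.5, 37.8 and 32.2 CPM. It was 1.17-fold lower with GATA2 overexpression than in CD90+ control cells (adjusted p = 5.66e-04), and those libraries did not overlap. Its difference between the control groups (1.096-fold higher in CD90+ cells, adjusted p = 0.0254) lost the call in 3 of 9 fits that left out 1 library: CD38+ replicate 1 (adjusted p = 0.0755) or 2 (0.113), or CD90+ control replicate 1 (0.102).

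The oligoadenylate synthetases make the messenger that activates RNase L, and OAS1, OAS3 and OAS2 lie in that order on chromosome 12 (112906777 to 113011723). OAS2 was at 16.2, 15.3 and 16.02 CPM in the CD38+ libraries, 50.9, 53.5 and 48.97 CPM in those of CD90+ control cells and 9.997, 10.8 and 12.6 CPM in those with GATA2 overexpression. The CD90+ control libraries were far above the others, with GATA2 overexpression the lowest. OAS2 was 3.22-fold higher in CD90+ than CD38+ control cells (log2 fold change 1.69 ± 0.07 SE, adjusted p = 5.49e-13) and 4.59-fold lower with GATA2 overexpression (log2 fold change -2.20 ± 0.07 SE, adjusted p = 3.18e-14). OAS1 was also highest in CD90+ control cells, at 32.7, 33.4 and 30.1 CPM in the CD38+ libraries, 74.4, 69.3 and 72.4 CPM in those of CD90+ control cells and 38.8, 33.99 and 36.7 CPM in those with GATA2 overexpression, but its lowest mean was in CD38+ cells, where it was slightly below GATA2 overexpression cells (1.14-fold, adjusted p = 0.00544). It was 2.25-fold higher in CD90+ control than CD38+ control cells (adjusted p = 2.32e-12) and 1.97-fold lower with GATA2 overexpression (adjusted p = 2.65e-11). OAS3 differed from its neighbours: its mean was 46.5 CPM in CD38+ cells, 38.004 in CD90+ control cells and 28.1 with GATA2 overexpression, lower in CD90+ than CD38+ control cells by the main scaling (adjusted p = 2.44e-04) but not called with upper-quartile factors (adjusted p = 0.661) or with library size only, where the sign was opposite (log2 fold change 0.12, adjusted p = 0.0738).

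OASL (ENSG00000135114.12, chromosome 12, 121019111 to 121039242, minus strand) encodes a relative without synthetase activity that enhances RIG-I signalling. It was at 23.4, 22.2 and 22.5 CPM in the CD38+ libraries, 41.4, 40.1 and 42.8 CPM in those of CD90+ control cells and 4.18, 4.58 and 4.48 CPM in those with GATA2 overexpression. The GATA2 overexpression libraries lay far below both control groups. OASL was 9.37-fold lower with GATA2 overexpression (log2 fold change -3.23 ± 0.07 SE, adjusted p = 7.18e-17) and 1.82-fold higher in CD90+ than CD38+ control cells (log2 fold change 0.87 ± 0.06 SE, adjusted p = 2.39e-10). EIF2AK2 (ENSG00000055332.17, chromosome 2, 37099210 to 37157065, minus strand) encodes PKR, the kinase that stops translation when double-stranded RNA is present, and was at 70.5, 72.5 and 67.6 CPM in the CD38+ libraries, 57.8, 55.5 and 55.7 CPM in those of CD90+ control cells and 78.1, 75.9 and 77.4 CPM in those with GATA2 overexpression. It was lowest in CD90+ control cells and 1.37-fold higher with GATA2 overexpression (adjusted p = 5.95e-09). Its 1.25-fold lower level in CD90+ than CD38+ control cells (adjusted p = 5.95e-07) became higher with library size only (log2 fold change 0.09, adjusted p = 0.0268) and was not called with upper-quartile factors (adjusted p = 0.187).

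The IFIT family gave the plainest pattern: all 4 members, which bind viral RNA or block its translation, were highest in CD90+ control cells and lower with GATA2 overexpression under every scaling tried. By the main scaling 29.3% of all genes tested were highest in CD90+ control cells and 39.6% were lower with GATA2 overexpression. They lie together on chromosome 10 (89283694 to 89421001). IFIT1, whose promoter with 2 ISRE cores is printed above, was at 10.3, 9.06 and 11.2 CPM in the CD38+ libraries, 70.1, 65.8 and 70.9 CPM in those of CD90+ control cells and 25.8, 24.6 and 23.2 CPM in those with GATA2 overexpression. No groups overlapped, with CD38+ control the lowest and GATA2 overexpression between the 2 control groups. IFIT1 was 6.75-fold higher in CD90+ than CD38+ control cells (log2 fold change 2.76 ± 0.07 SE, adjusted p = 4.99e-16) and 2.81-fold lower with GATA2 overexpression (log2 fold change -1.49 ± 0.06 SE, adjusted p = 7.84e-13).

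IFIT2 was at 31.6, 32.8 and 31.6 CPM in the CD38+ libraries, 104, 107 and 106 CPM in those of CD90+ control cells and 27.6, 22.5 and 23.97 CPM in those with GATA2 overexpression. Here the GATA2 overexpression libraries were the lowest, just below those of CD38+ control cells. It was 3.29-fold higher in CD90+ than CD38+ control cells (adjusted p = 1.30e-14) and 4.26-fold lower with GATA2 overexpression (adjusted p = 1.99e-15). IFIT3, whose promoter is also printed above, was at 50.04, 50.96 and 51.9 CPM in the CD38+ libraries, 98.7, 98.2 and 98.1 CPM in those of CD90+ control cells and 18.9, 17.6 and 17.8 CPM in those with GATA2 overexpression. The GATA2 overexpression libraries were well below both controls, by 5.43-fold from CD90+ control (log2 fold change -2.44 ± 0.04 SE, adjusted p = 6.91e-18) and 2.81-fold from CD38+ control cells (adjusted p = 1.91e-15). IFIT5 had means of 8.64, 26.3 and 14.8 CPM in CD38+ control, CD90+ control and GATA2 overexpression cells and was called in each comparison. Against CD38+ control cells, the GATA2 overexpression cells were therefore higher in IFIT1 (2.403-fold) and IFIT5 (1.71-fold) and lower in IFIT2 (1.295-fold) and IFIT3.

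**Figure D4:**
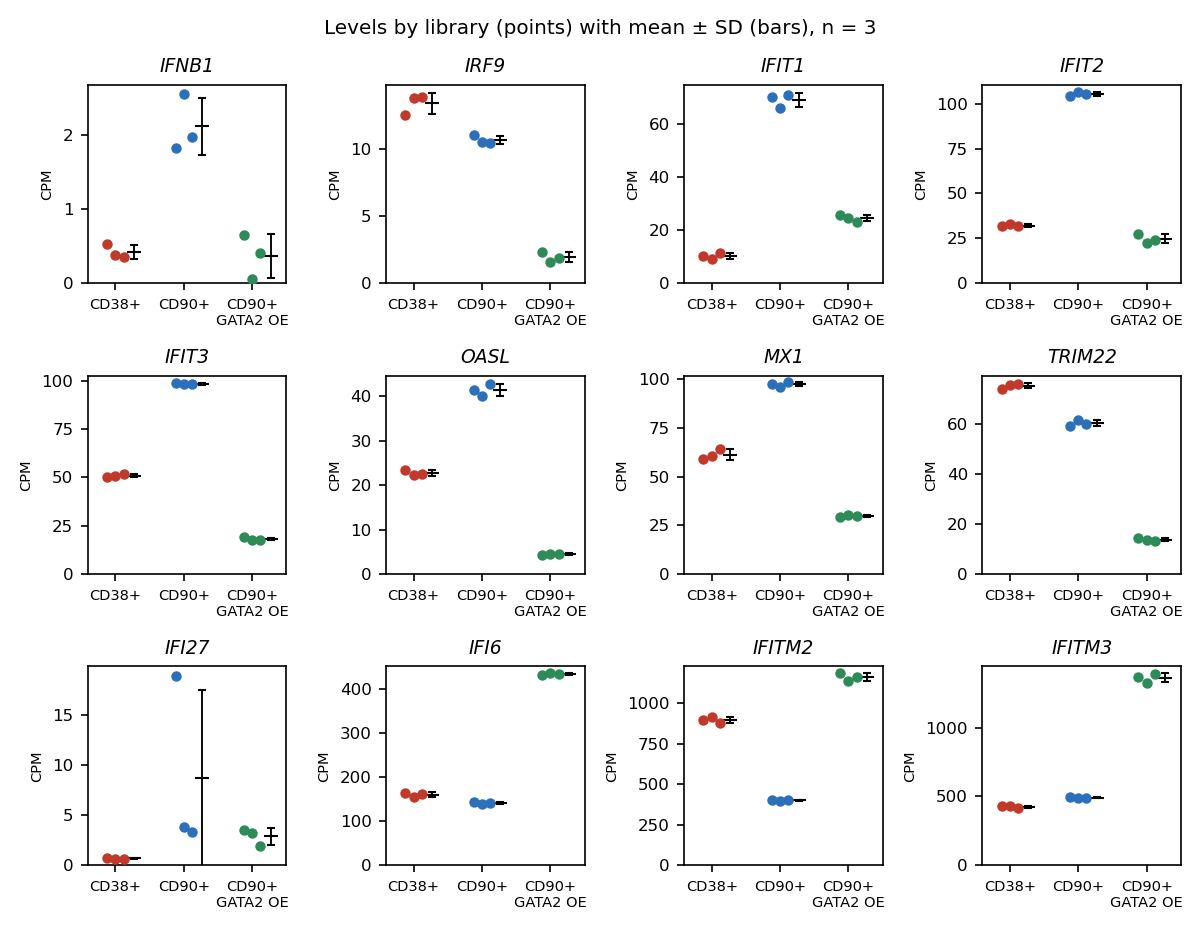
Level in CPM (y axis, from 0) of IFNB1 and 11 members in each library (points) of CD38+ control (red), CD90+ control (blue) and GATA2 overexpression (OE) CD90+ cells (green), with mean ± SD of 3 libraries beside them. IFIT1, IFIT2, IFIT3, OASL and MX1 peak in CD90+ control cells, IRF9 and TRIM22 are lowest with GATA2 overexpression, and IFI6 and IFITM3 are highest there; the IFI27 mean rests on 1 high library, and its error bar is clipped at 0.

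The IFITM genes, whose products sit in membranes and block fusion of entering viruses, were higher with GATA2 overexpression in all 3 cases under every scaling tried. Of all genes tested, 38.0% were higher than in CD90+ control cells by the main scaling. They form a cluster on chromosome 11 (307631 to 327537). IFITM3, whose promoter is printed above, was at 427, 430.1 and 418 CPM in the CD38+ libraries, 498, 489 and 486 CPM in those of CD90+ control cells and 1369, 1327 and 1393 CPM in those with GATA2 overexpression. No groups overlapped, and the GATA2 overexpression libraries were far above both controls. It was 2.78-fold higher with GATA2 overexpression than in CD90+ control cells (log2 fold change 1.47 ± 0.02 SE, adjusted p = 5.81e-18) and 1.16-fold higher in CD90+ than CD38+ control cells (adjusted p = 6.63e-07).

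IFITM2 was at 894, 916 and 878 CPM in the CD38+ libraries, 404, 395 and 399 CPM in those of CD90+ control cells and 1186, 1135 and 1163 CPM in those with GATA2 overexpression. In contrast to IFITM3, its CD38+ control libraries lay far above those of CD90+ control cells, by 2.24-fold (log2 fold change -1.17 ± 0.02 SE, adjusted p = 6.87e-17). It was 2.91-fold higher with GATA2 overexpression than in CD90+ control cells (log2 fold change 1.54 ± 0.03 SE, adjusted p = 4.08e-18). IFITM1 was at 44.6, 44.6 and 42.2 CPM in the CD38+ libraries, 35.8, 36.1 and 35.8 CPM in those of CD90+ control cells and 84.2, 84.6 and 86.2 CPM in those with GATA2 overexpression. It was 2.37-fold higher with GATA2 overexpression (log2 fold change 1.24 ± 0.04 SE, adjusted p = 1.12e-14), and lower in CD90+ than CD38+ control cells by TMM (adjusted p = 3.74e-06) but not called with upper-quartile factors (adjusted p = 0.592) and of opposite sign with library size only (log2 fold change 0.12, adjusted p = 0.00835). These genes are related in sequence, though not equally so. The annotated exons of IFITM1 and IFITM2 also overlap by 351 bases on the same strand in GENCODE release 29. How reads that match more than 1 of them were counted is not given in the sources used here, so the split among the 3 is uncertain.

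Both MX genes, dynamin-like GTPases that trap viral particles (MX1 those of influenza, MX2 those of HIV), were highest in CD90+ control cells and lowest with GATA2 overexpression. Of all genes tested, 29.3% had their highest mean in CD90+ control cells and 33.6% their lowest with GATA2 overexpression. They are neighbours on chromosome 21 (41361943 to 41459214). MX1 was at 59.03, 60.8 and 64.2 CPM in the CD38+ libraries, 97.5, 96.3 and 98.5 CPM in those of CD90+ control cells and 29.5, 30.3 and 29.8 CPM in those with GATA2 overexpression. The 3 groups were well apart. It was 1.59-fold higher in CD90+ than CD38+ control cells (log2 fold change 0.67 ± 0.04 SE, adjusted p = 3.52e-11) and 3.26-fold lower with GATA2 overexpression (log2 fold change -1.71 ± 0.04 SE, adjusted p = 3.35e-16). MX2 was at 21.6, 23.7 and 22.5 CPM in the CD38+ libraries, 46.6, 44.8 and 44.9 CPM in those of CD90+ control cells and 12.2, 14.4 and 11.8 CPM in those with GATA2 overexpression, again with no overlap. Its differences were 2.01-fold (adjusted p = 2.43e-10) and 3.55-fold (adjusted p = 1.69e-13) in the same directions.

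Of the 8 other antiviral effectors 7 were lower with GATA2 overexpression than in CD90+ control cells, 6 of them at least 2-fold, beside 39.6% and 21.4% of all genes. Between the control groups 3 were higher and 4 lower in CD90+ cells (3 and 3 with upper-quartile factors, 4 and 3 with library size only), beside 41.1% and 39.3% of all genes. TRIM22 (ENSG00000132274.15, chromosome 11, 5689689 to 5737089, plus strand), a ubiquitin ligase active against retroviruses, was at 73.9, 75.5 and 75.7 CPM in the CD38+ libraries, 58.9, 61.3 and 60.001 CPM in those of CD90+ control cells and 14.4, 13.7 and 13.1 CPM in those with GATA2 overexpression. The GATA2 overexpression libraries were far below both controls. It was 4.38-fold lower with GATA2 overexpression (log2 fold change -2.13 ± 0.05 SE, adjusted p = 1.30e-16), and lower in CD90+ than CD38+ control cells by TMM (adjusted p = 1.44e-06). That second difference was not called with upper-quartile factors or with library size only, where the sign was opposite (log2 fold change 0.09, adjusted p = 0.0524). RSAD2 (ENSG00000134321.11, chromosome 2, 6865806 to 6898239, plus strand), the enzyme viperin that makes a chain-terminating nucleotide, was at 9.07, 9.52 and 8.01 CPM in the CD38+ libraries, 8.66, 9.14 and 8.48 CPM in those of CD90+ control cells and 1.19, 1.46 and 1.58 CPM in those with GATA2 overexpression. The control groups overlapped, and both were above all GATA2 overexpression libraries. RSAD2 was 6.22-fold lower with GATA2 overexpression (log2 fold change -2.64 ± 0.14 SE, adjusted p = 2.65e-11), while between the control groups its log2 fold change was -0.02 (adjusted p = 0.906), and it turned to 0.39 (adjusted p = 0.00769) with library size only.

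GBP1 and GBP2 encode GTPases that attack the membranes around pathogens, are induced mainly by interferon gamma, and lie near each other on chromosome 1 (89052319 to 89150456). GBP1 was scarce, at 1.33, 1.55 and 1.75 CPM in the CD38+ libraries, 3.83, 2.78 and 3.44 CPM in those of CD90+ control cells and 0.362, 0.106 and 0.0272 CPM in those with GATA2 overexpression. Its GATA2 overexpression libraries held 19 counts in all, and no groups overlapped. GBP1 was 19.7-fold lower with GATA2 overexpression (log2 fold change -4.30 ± 0.39 SE, adjusted p = 2.62e-08). Most of those counts were in GATA2 overexpression replicate 1, and without it the log2 fold change was -5.58 (adjusted p = 1.49e-09). GBP1 was also 2.16-fold higher in CD90+ than CD38+ control cells (adjusted p = 0.00186). GBP2 went the other way between the controls, with 75.96 ± 1.23 CPM in CD38+ cells, 24.4 ± 1.198 in CD90+ control cells and 5.78 ± 0.655 with GATA2 overexpression. Each step was called: 3.11-fold (adjusted p = 5.67e-14) and 4.22-fold (adjusted p = 4.73e-14).

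BST2 (ENSG00000130303.12, chromosome 19, 17402939 to 17405648, minus strand), the tetherin that holds budding virus at the cell surface, was at 175, 171 and 170.0 CPM in the CD38+ libraries, 309, 297 and 318 CPM in those of CD90+ control cells and 394, 339 and 356 CPM in those with GATA2 overexpression. It was 1.79-fold higher in CD90+ than CD38+ control cells (log2 fold change 0.84 ± 0.04 SE, adjusted p = 7.41e-12). Its 1.18-fold higher level with GATA2 overexpression than in CD90+ control cells (log2 fold change 0.24 ± 0.04 SE, adjusted p = 6.24e-05) was not held with library size only, where the log2 fold change was -0.01 (adjusted p = 0.788). ISG20, an RNA exonuclease, was at 12.4 ± 0.194, 51.3 ± 1.24 and 15.7 ± 0.698 CPM in CD38+ control, CD90+ control and GATA2 overexpression cells, 4.12-fold higher in CD90+ than CD38+ control cells (adjusted p = 1.39e-15). The adjacent genes SAMD9 and SAMD9L on chromosome 7, which restrain poxviruses and cell growth, were highest in CD38+ control cells. SAMD9 was 3.23-fold lower in CD90+ control than CD38+ control cells and a further 1.79-fold lower with GATA2 overexpression, and SAMD9L 1.65-fold and 4.005-fold (largest adjusted p of the 4 tests, 9.17e-05).

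Among the remaining response genes IFI6 stood out in direction. IFI6 (ENSG00000126709.14, chromosome 1, 27666061 to 27672218, minus strand), a membrane protein that blocks flavivirus replication and whose promoter with 3 ISRE cores is printed above, was at 164, 154 and 162 CPM in the CD38+ libraries, 144, 139.5 and 142 CPM in those of CD90+ control cells and 433, 437 and 435 CPM in those with GATA2 overexpression. All GATA2 overexpression libraries were far above both controls. IFI6 was 3.07-fold higher with GATA2 overexpression than in CD90+ control cells (log2 fold change 1.62 ± 0.03 SE, adjusted p = 3.72e-18), and slightly lower in CD90+ than CD38+ control cells (1.13-fold, adjusted p = 1.03e-05), a direction that turned to a log2 fold change of 0.23 with library size only (adjusted p = 3.45e-07) and 0.09 with upper-quartile factors (adjusted p = 0.00706).

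IFI27 (ENSG00000165949.12, chromosome 14, 94104836 to 94116698, plus strand), a small mitochondrial protein, was at 0.718, 0.642 and 0.626 CPM in the CD38+ libraries, 18.9, 3.83 and 3.302 CPM in those of CD90+ control cells and 3.46, 3.23 and 1.903 CPM in those with GATA2 overexpression. CD90+ control replicate 1 was far above every other library. By the fit to all libraries IFI27 was 13.04-fold higher in CD90+ than CD38+ control cells (log2 fold change 3.71 ± 0.57 SE, adjusted p = 1.54e-05) and 3.02-fold lower with GATA2 overexpression (log2 fold change -1.59 ± 0.48 SE, adjusted p = 0.00657). Without that replicate the first log2 fold change was 2.43 and the second -0.32 with an adjusted p of 0.236, so the call between the CD90+ groups rested on 1 library. The same replicate had the lowest level of IRF7 among the CD90+ control libraries.

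XAF1 (ENSG00000132530.16, chromosome 17, 6755447 to 6775647, plus strand), which promotes cell death by binding an inhibitor of apoptosis, was at 10.3, 11.2 and 13.04 CPM in the CD38+ libraries, 13.4, 12.6 and 12.7 CPM in those of CD90+ control cells and 3.64, 2.28 and 2.56 CPM in those with GATA2 overexpression. The control groups overlapped (log2 fold change 0.16, adjusted p = 0.272; called higher in CD90+ cells with library size only, upper-quartile factors or a fit to the 2 groups alone). It was 4.56-fold lower with GATA2 overexpression (log2 fold change -2.19 ± 0.15 SE, adjusted p = 5.61e-10). IFI35, which forms a complex with NMI, had means of 89.5, 37.2 and 21.3 CPM in CD38+ control, CD90+ control and GATA2 overexpression cells, and both steps down were called (largest adjusted p = 1.02e-09). PARP9, a partner of the ubiquitin ligase DTX3L, fell 1.74-fold with GATA2 overexpression (adjusted p = 1.08e-09). It was 1.24-fold lower in CD90+ than CD38+ control cells (adjusted p = 5.60e-05), but not called with upper-quartile factors (adjusted p = 0.400) or with library size only, where the sign was opposite (log2 fold change 0.10, adjusted p = 0.109).

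The neighbours IFI44L and IFI44 on chromosome 1 (78619922 to 78664078) were higher in CD90+ than CD38+ control cells. The differences were 2.24-fold (adjusted p = 5.61e-07) and 1.76-fold (adjusted p = 1.28e-04). IFI44L was also 1.52-fold lower with GATA2 overexpression (adjusted p = 5.43e-04). For IFI44 that difference (1.29-fold, adjusted p = 0.0368) lost the call in 5 of 9 fits that left out 1 library: any CD90+ control replicate, or GATA2 overexpression replicate 1 or 3 (adjusted p from 0.055 to 0.141).

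**Figure D5:**
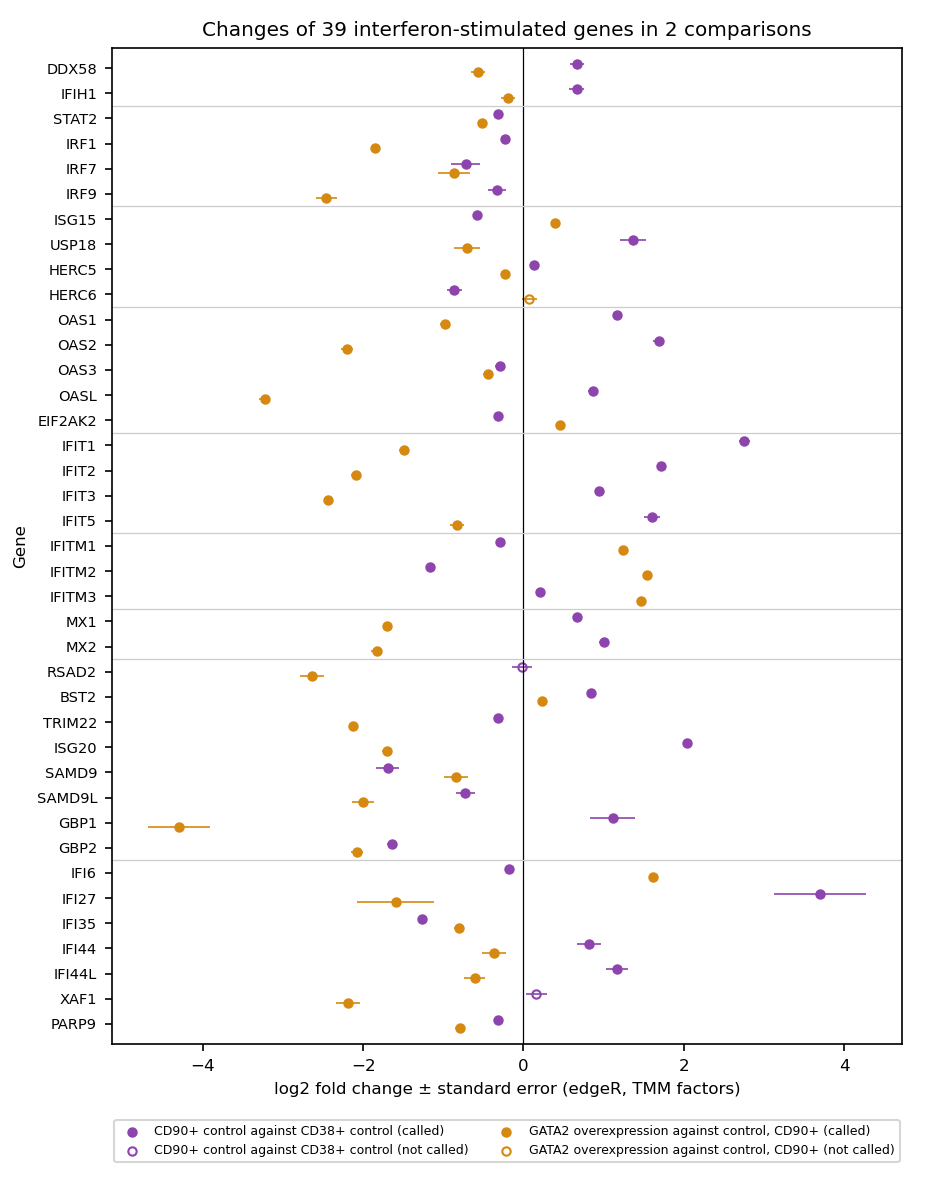
Log2 fold change ± standard error (x axis, edgeR with TMM factors) of each member (rows, by role) in CD90+ against CD38+ control cells (purple) and in GATA2 overexpression against control CD90+ cells (orange), with filled points called and open points not called. Most orange points lie left of 0, with IFITM1, IFITM2, IFITM3 and IFI6 furthest to the right. Purple points lie on both sides, and those of STAT2, IRF1, IRF9, OAS3, EIF2AK2, IFITM1, TRIM22, IFI6, PARP9 and RSAD2 change sign with library size only, as do the orange points of BST2 and HERC6.

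Except in choosing which genes to name, which used CPM without regard to length, levels were compared between genes as CPM per kilobase of the union of annotated exons. On this scale the same 5 members were the most abundant in every group: IFITM2, IFITM3, ISG15, BST2 and IFI6. IFITM2 led in CD38+ control cells, at 580.5 ± 12.4 CPM per kilobase. IFITM3 led in CD90+ control cells, at 364 ± 4.44, and in GATA2 overexpression cells, at 1011 ± 24.97 CPM per kilobase. At the other end, GBP1 was lowest in CD90+ control (0.671 ± 0.107, or SAMD9 when the longest transcript was used) and GATA2 overexpression cells (0.0330 ± 0.0350), and IFI27 in CD38+ control cells (0.1596 ± 0.0119). The highest IFIT gene, IFIT3, was at 37.2 ± 0.107 CPM per kilobase in CD90+ control cells, far below IFITM2 and IFITM3 and close to IFITM1, which was at 33.2 ± 0.1801. With the longest transcript as the length that last order turned, at 39.4 for IFIT3 and 41.98 for IFITM1.

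Genes of the wider pathway were taken from lists that hold no member. Of 21 interferon genes listed, 10 were in the table and only IFNB1, the gene of interferon beta, had enough counts to be tested. IFNB1 was at 0.532, 0.374 and 0.351 CPM in the CD38+ libraries, 1.83, 2.56 and 1.97 CPM in those of CD90+ control cells and 0.646, 0.05299 and 0.408 CPM in those with GATA2 overexpression. These rest on 48, 332 and 42 counts per group, and the CD90+ control libraries were above all others. IFNB1 was 5.05-fold higher in CD90+ than CD38+ control cells (log2 fold change 2.34 ± 0.41 SE, adjusted p = 6.50e-05) and 5.69-fold lower with GATA2 overexpression (log2 fold change -2.51 ± 0.42 SE, adjusted p = 4.14e-05).

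Of 9 genes of interferon receptors and their kinases, 6 were lower and 0 higher with GATA2 overexpression than in CD90+ control cells, beside 39.6% and 38.0% of all genes (median log2 fold change -0.86), with 8 lower by library size only or upper-quartile factors, and between the control groups 3 were higher and 5 lower in CD90+ cells, beside 41.1% and 39.3% of all genes (4 and 4 with library size only). IFNGR1, the binding chain of the interferon gamma receptor, was at means of 248, 422 and 114 CPM in CD38+, CD90+ control and GATA2 overexpression cells, 3.71-fold lower with GATA2 overexpression (adjusted p = 1.80e-18). IL10RB, a chain of the interferon lambda receptor, was 2.03-fold lower in CD90+ than CD38+ control cells and 2.56-fold lower still with GATA2 overexpression (adjusted p = 5.16e-13 and 5.99e-14). JAK1 was not called between the CD90+ groups (log2 fold change -0.06, adjusted p = 0.0627), though it was called lower with the other scalings.

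Of 15 tested genes of nucleic acid sensing, 9 were lower and 4 higher with GATA2 overexpression (11 and 1 with library size only), beside 39.6% and 38.0% of all genes tested. The endosomal RNA sensor TLR7 was at 1.36, 1.98 and 1.58 CPM in the CD38+ libraries, 8.27, 8.22 and 9.604 CPM in those of CD90+ control cells and 0.0517, 0.132 and 0 CPM in those with GATA2 overexpression, with its GATA2 overexpression libraries close to 0. TLR8 had means of 2.27, 3.95 and 0.194 CPM. The DNA sensor IFI16 was 1.81-fold lower with GATA2 overexpression (adjusted p = 9.97e-11), whereas TMEM173, the DNA-sensing adaptor STING, was 3.49-fold lower in CD90+ than CD38+ control cells and 3.02-fold higher with GATA2 overexpression (adjusted p = 7.84e-18 and 7.00e-17).

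Of the 6 other IRF genes 5 were lower and 1 higher with GATA2 overexpression, beside 39.6% and 38.0% of all genes. IRF8, a factor of monocytes and dendritic cells, was at 110.5, 296 and 24.3 CPM, a 12.1-fold fall between the CD90+ groups (adjusted p = 2.42e-20). IRF5 fell 3.71-fold and IRF4 19.2-fold (adjusted p = 2.51e-15 and 2.71e-15). Of 11 inhibitors of interferon signalling 5 were lower and 2 higher (7 and 2 with library size only), so that the share that was lower was near the 39.6% of all genes. Among them were SOCS3, the feedback inhibitor of cytokine receptors, at 7.07-fold and SAMHD1, a nucleotide hydrolase, at 14.9-fold lower (adjusted p = 3.31e-19 and 6.40e-18). ADAR, which edits double-stranded RNA, was 1.71-fold lower (adjusted p = 2.73e-12). PTPN6 was not called (adjusted p = 0.914), but was called lower under each other scaling.

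A further list of 51 tested interferon-stimulated genes had 30 lower and 13 higher with GATA2 overexpression (35 and 7 with library size only), beside 39.6% and 38.0% of all genes, with a median log2 fold change of -0.41 beside -0.84 for the 39 members. CXCL10, a chemokine induced by interferon gamma, was at 2.42, 2.94 and 2.48 CPM in the CD38+ libraries, 21.4, 24.1 and 23.3 CPM in those of CD90+ control cells and 0.594, 0.5299 and 0.516 CPM in those with GATA2 overexpression. It peaked in CD90+ control cells, 8.78-fold above CD38+ control (adjusted p = 8.95e-14) and 41.7-fold above GATA2 overexpression cells (adjusted p = 1.51e-15). RTP4 had the same order at low levels (0.421, 2.64 and 0.178 CPM). WARS, a tryptophan transfer RNA synthetase, was instead highest in CD38+ control cells, at 1099.7 ± 16.2 CPM, and lower in the CD90+ groups (224 ± 1.98 CPM in control and 67.3 ± 0.917 CPM in overexpressing cells). SHISA5 was higher with GATA2 overexpression (1.21-fold, adjusted p = 1.15e-08), but not called with library size only (adjusted p = 0.291).

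Markers of other cells differed between the same groups. Summed over 14 monocyte and macrophage markers, the level was 3361 to 3384 CPM in CD38+ and 2549 to 2593 CPM in CD90+ control libraries. With GATA2 overexpression it was 533 to 589.5 CPM. No marker was at 0 in any group, but those with a mean of at least 1 CPM numbered 12, 13 and 6. Between the control groups 7 of the 13 tested markers were higher in CD90+ cells, each at least 2-fold. The other 6 were lower, 4 of them at least 2-fold, and the median log2 fold change was 1.36. Of all genes 41.1% were higher and 39.3% lower, and 22.6% and 13.6% at least 2-fold. The complement genes C1QA and C1QB, named here after their values were seen, were highest in CD90+ control cells. Their means were 9.504 and 0.779 CPM in CD38+ cells, 150.4 and 134 CPM in CD90+ control cells and 0.654 and 0.414 CPM with GATA2 overexpression. These 2 genes do not stand for the whole list, which went both ways between the control groups. All 13 tested markers of this list were lower with GATA2 overexpression than in CD90+ control cells, beside 39.6% of all genes. Of these 12 were at least 2-fold lower, beside 21.4% of all genes, and the median log2 fold change was -5.41. Summed plasmacytoid dendritic cell markers were at 64.97 to 103.5, 62.4 to 96.1 and 60.01 to 69.2 CPM. The defining marker CLEC4C had 0 counts in CD90+ control libraries, LILRA4 in GATA2 overexpression libraries and TCL1A in CD38+ libraries. Of the 7 markers 4 were tested, with a median log2 fold change of -3.08 between the CD90+ groups. With GATA2 overexpression 3 were lower, each at least 2-fold, and 1 higher, beside 39.6% and 38.0% of all genes. By library size only or upper-quartile factors 0 were higher. The 10 mesenchymal markers summed to 29.01 to 30.4, 1111 to 1130 and 272 to 289.7 CPM. All 10 were higher in CD90+ than CD38+ control cells and lower with GATA2 overexpression, beside 41.1% and 39.6% of all genes. The 10 endoderm and epithelial markers summed to 358 to 373, 1116.5 to 1125.9 and 713 to 719.8 CPM. All 10 were higher in CD90+ than CD38+ control cells. Between the CD90+ groups 9 were lower and 1 higher with GATA2 overexpression, beside 39.6% and 38.0% of all genes. Mast cell, basophil and eosinophil markers summed to 5344 to 5571, 174 to 182 and 561 to 622 CPM. All 10 were higher with GATA2 overexpression than in CD90+ control cells. Markers higher and lower with GATA2 overexpression numbered 4 and 1 of 6 for megakaryocytes and 3 and 1 of 6 for neutrophil precursors. For endothelial, erythroid and lymphoid markers they numbered 4 and 2 of 7, 1 and 6 of 8, and 2 and 4 of 8. For pan-leukocyte and progenitor markers they numbered 3 and 3 of 6. Of all genes 38.0% were higher and 39.6% lower. The part of these cell types in the differences of the interferon-stimulated genes was not tested.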

How the data were processed

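RNA was measured in 9 libraries, 3 per group. The deposited table holds whole-number read counts per gene, which the authors made with HISAT2, featureCounts and the hg38 build, per the submitters' processing notes; their versions, the annotation and the strand setting were not given in the sources used here. Genes were kept by edgeR's filterByExpr (minimum count 10, total 15). Counts were scaled by TMM and tested with edgeR 4.0.16 (R 4.3.3) quasi-likelihood fits of all 9 libraries, without a replicate block. Depth was 37500192 to 47261093 counts per library, the common dispersion was 0.00452, and floors cover counting error only.

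The members and the gene lists were chosen with earlier results of these data known. Library values are given for 27 members: in each role, up to 3 with the largest change in either comparison with CD90+ control cells and the one with the highest level. In each pathway list the 2 genes with the highest level and the 2 with the largest called change (mean of at least 1 CPM) are named, besides GATA2, THY1 and CD38. Of 211 list symbols 198 were in the table, and 13 were not analysed here. 1 further item is not reported here. Alternatives were other scalings (RLE, upper quartile, library size only), filters (none, or 1 CPM or more in 3 libraries) and tools (limma voom 3.58.1, DESeq2 1.42.0), the 2 groups alone, a replicate block and each library left out. On simulated data for CD90+ against CD38+ control cells, with 200 of 16232 genes changed, 86.6% of 1.5-fold changes were recovered and 6.37% of calls were false. These values were 92.5% and 2.51% between the CD90+ groups, and 89.6% and 6.76% between GATA2 overexpression and CD38+ control cells. In the data 80.4% of genes were called between the control groups. With so few genes changed, the simulation cannot measure errors that come from the scaling. Gene positions are from GENCODE release 29 on GRCh38.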

Additional observations from a re-analysis of the deposited data

How the results depend on the processing

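Of the members' single-gene values under all alternatives, 669 kept direction and call, 11 lost the call, 3 gained it and 19 reversed between CD90+ and CD38+ control cells. Between the CD90+ groups these numbers were 683, 15, 0 and 4, and between GATA2 overexpression and CD38+ control cells 692, 5, 3 and 2. The members lower in CD90+ than CD38+ control cells numbered 7 with library size only and 8 with upper-quartile factors. The median over all members in that comparison was 0.21 with RLE factors, 0.57 with library size only, 0.43 with upper-quartile factors, 0.24 with at least 1 CPM in 3 libraries, 0.21 with DESeq2, 0.22 with the 2 groups alone and 0.12 to 0.20 with 1 library left out. Between the CD90+ groups it was -0.89 with RLE factors, -1.09 with library size only, -0.96 with upper-quartile factors, -0.94 with at least 1 CPM in 3 libraries and -0.89 with DESeq2. Against CD38+ control cells the GATA2 overexpression median was -0.35 with library size only and -0.36 with upper-quartile factors. Of all calls between the control groups, 51.2% were higher in CD90+ cells, against 71.2% with library size only and 64.3% with upper-quartile factors, and between the CD90+ groups 49.0% were higher, against 35.5% with library size only. With library size only the log2 fold change between the control groups reversed to 0.10 for STAT2, 0.18 for IRF1, 0.079 for IRF9, 0.12 for OAS3, 0.093 for EIF2AK2, 0.12 for IFITM1, 0.39 for RSAD2, 0.089 for TRIM22, 0.23 for IFI6 and 0.10 for PARP9. With upper-quartile factors it reversed to 0.036 for IRF1, 0.25 for RSAD2 and 0.085 for IFI6. RSAD2, near 0, also reversed to 0.031 with RLE factors, 0.032 with DESeq2, 0.065 with at least 1 CPM in 3 libraries and 0.042 with the 2 groups alone, and ranged from -0.086 (without CD38+ control replicate 3) to 0.035 (without CD38+ control replicate 2) with 1 library left out. Between the CD90+ groups HERC6 reversed to -0.17 with library size only, -0.039 with upper-quartile factors and -0.021 with at least 1 CPM in 3 libraries, and BST2 to -0.012 with library size only. HERC5 against CD38+ control cells reversed to 0.061 and 0.048 with library size only and upper-quartile factors. The cause was not tested.

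IFI27 with GATA2 overexpression was not called by limma voom (adjusted p = 0.0923 against CD90+ and 0.102 against CD38+ control cells). Same-numbered replicates did not deviate together (correlations -0.052 to 0.015), so the numbers were not taken to pair the samples. With a replicate block the members called higher and lower were 20 and 17, 7 and 31, and 15 and 22, the same as without it. The values of GBP1, IFI27 and IFNB1 are limited by few counts in at least 1 group.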
